A study of Mus musculus with 9 samples.

Results

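The genes described here are 37 markers of the mature absorptive colonocyte, the cell that lines the surface of the colon and takes up salt, water and short-chain fatty acids. They were listed by name for their known roles, at a time when earlier results of these data were known. All 37 were found among the 48795 Ensembl genes of the deposited table through GENCODE M21 symbols on the mouse build GRCm38. The 9 RNA-seq libraries came from mouse colon organoids, which are cultures of epithelial cells grown in Matrigel from colonic crypts. The organoids were kept in WENR medium, which contains Wnt-3A, EGF, Noggin and R-spondin-1 and holds them in a stem cell state. Per the methods of the study, WENR medium also contained SB202190, an ALK5 inhibitor and nicotinamide, and mice were on a C57BL/6 background. WT organoids came from littermates, and AHR KO organoids came from mice in which Villin-driven Cre deletes a floxed allele of the aryl hydrocarbon receptor (AHR), a ligand-activated transcription factor, in the intestinal epithelium. Organoids received the solvent DMSO or 5 nM of FICZ, a high-affinity AHR ligand, for 4 h. There were 2 WT DMSO libraries (replicates 2 and 3), 3 WT FICZ libraries (replicates 1, 2 and 3), 2 AHR KO DMSO libraries (replicates 1 and 3) and 2 AHR KO FICZ libraries (replicates 1 and 3). The age of the mice and the mouse behind each library are not given in the labels, so the p-values measure the spread between these libraries, and genotype cannot be told apart from differences between the organoid cultures of each genotype.

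The sum of normalised counts in a library ranged from 23177058 to 25033827. Libraries of a group correlated at r = 0.986 to 0.991 across the 12741 genes tested, and no pair was a copy. The targeted gene did not check the labels, since gene totals cannot show the loss of a floxed exon: Ahr was at 783 to 858 normalised counts in the 5 libraries labelled WT and at 1346 to 1443 in the 4 labelled AHR KO. Cyp1b1, an AHR target, did separate the labels, at 1078 and 1632 in WT DMSO against 25.4 and 34.5 in AHR KO DMSO. With FICZ it was at 137 and 222 in AHR KO, above both AHR KO DMSO libraries, against 8898 to 10600 in WT. The AHR target Cyp1a1 was at 0 and 2.93 in AHR KO DMSO and at 100.3 and 139 in AHR KO FICZ, against 6987 to 7958 in WT FICZ. Directions between genotypes below rest on the labels, which Cyp1b1 separated under each treatment and Cyp1a1 under FICZ, and which Ahr totals could not check. All 6 general epithelial markers were present in every library, with a summed value of 288191 to 313908. Of these, Epcam was lower in all 4 AHR KO libraries (21237 to 25811) than in WT (31458 to 35708), at -0.43 ± 0.08 under DMSO and -0.46 ± 0.07 under FICZ (limma adjusted p = 0.00846 and 0.00145), although the DMSO call was lost without WT DMSO replicate 2 or AHR KO DMSO replicate 3. Krt18 was higher in AHR KO under FICZ (0.38 ± 0.07, limma adjusted p = 0.00575). The 7 fibroblast markers together reached 6.8 at most.

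Absorptive colonocytes differentiate as cells leave the crypt base, where Wnt signalling is strong, and migrate to the surface. Their apical membrane carries a brush border of microvilli that are built on actin, cross-linked by protocadherins and covered by transmembrane mucins. Sodium enters through sodium-proton exchangers and epithelial sodium channels, chloride enters in exchange for bicarbonate that carbonic anhydrases supply, and butyrate enters through monocarboxylate transporters.

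The organoids expressed the members very unevenly. Of the 37 genes, 13 had a mean of 1000 or more normalised counts over the 9 libraries, 7 lay between 100 and 1000, 5 between 10 and 100, and 12 had a mean under 10 and were not tested. Ceacam1, which encodes a cell adhesion molecule of the apical surface, was the highest member per length, at 45959 normalised counts per kb of its longest transcript in WT DMSO, and ranked 6 among all genes by its mean. It was followed per kb by Lypd8, a GPI-anchored protein that keeps flagellated bacteria off the surface (31468), the carbonic anhydrase Car2 (13113), Vil1, the actin-bundling protein villin (4993), and the transmembrane mucin Muc13 (2904). At the other end, the chloride-bicarbonate exchanger Slc26a3, which defines surface colonocytes, was at only 5.85 per kb. The label of the set was thus borne out in part: general microvillus and surface genes were abundant, whereas several of the defining genes of surface colonocytes were at or near 0.

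The 12 members under the minimum were Scnn1b, Car4, Aqp8, Slc51a, Slc51b, Alpi, Dpp4, Anpep, Fabp1, Fabp2, Saa1 and Guca2b. Fabp1, a fatty acid binding protein, was at 0 in every library. Aqp8, the water channel of surface colonocytes, was at 0 in both WT DMSO and both AHR KO DMSO libraries, at 1.92, 1.21 and 3.51 in WT FICZ, and at 1.18 and 0 in AHR KO FICZ. Slc51a, a subunit of the basolateral bile acid exporter, was above 0 in a single library, at 1.09 in WT FICZ replicate 1. Car4, the membrane-bound carbonic anhydrase, ranged from 0 to 9.08, and Alpi, intestinal alkaline phosphatase, from 0 to 10.97. The peptidases Dpp4 and Anpep reached at most 21.2 and 11.3, Fabp2 reached 7.92, the acute-phase protein Saa1 7.196, and Scnn1b, the beta subunit of the epithelial sodium channel, 11.5. Guca2b, which encodes the guanylate cyclase ligand uroguanylin, was at 14.5 and 10.4 in WT DMSO, at 5.42, 2.06 and 4.95 in WT FICZ, at 0.798 and 0.967 in AHR KO DMSO, and at 2.01 and 2.15 in AHR KO FICZ. Slc51b, the other subunit of the bile acid exporter, was at 6.81 and 5.56 in WT DMSO and at 0 and 0.945 in AHR KO DMSO. These values are of the order of a few reads, so they are given as a description. A fit with no minimum called Guca2b lower in AHR KO under DMSO (log2 fold change -2.82, limma adjusted p = 0.025). It also called Aqp8 higher with FICZ in WT (1.62, limma adjusted p = 0.042). Neither call is read at such levels.

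Promoters were read from RefSeq (GRCm38.p6), which gave windows from 250 bases before to 50 bases after the start for 30 of the 37 members. Slc26a2, Aqp4, Mep1b, Car1, Car2, Scnn1a and Clca4a had none. Since FICZ is an AHR ligand, both strands were searched for the core of the AHR response element (GCGTG). They were also searched for TTTATG (the CDX motif), CAAAGTCCA (HNF4) and CACCC (KLF), which are motifs of factors known to drive enterocyte genes. The AHR core stood in 6 of the 30 members (20.0%), against 35.2% of 27025 genes with a promoter. The CDX motif stood in 7 members (23.3% against 13.6%), the HNF4 motif in 2 (6.7% against 0.6%) and the KLF motif in 22 (73.3% against 59.8%). These shares are descriptions and were not tested. The promoters below show an AHR core in Slc9a3, the sodium-proton exchanger, and a pair of cores in Slc16a1, the butyrate transporter and the sole member called higher in AHR KO. They also show the CDX motif in Cdhr5 and Mep1a and the HNF4 motif in the downstream promoter of Muc13. Matches are in capitals, on either strand, and none of those shown overlaps another.
Slc9a3 (chr13:74121163-74121462, plus strand): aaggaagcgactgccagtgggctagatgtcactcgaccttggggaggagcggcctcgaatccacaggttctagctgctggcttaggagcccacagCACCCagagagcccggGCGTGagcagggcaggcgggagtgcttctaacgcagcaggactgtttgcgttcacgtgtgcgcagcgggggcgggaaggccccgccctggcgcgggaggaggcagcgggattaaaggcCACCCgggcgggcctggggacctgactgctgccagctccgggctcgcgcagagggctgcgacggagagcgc
Slc16a1 (chr3:104638414-104638713, plus strand): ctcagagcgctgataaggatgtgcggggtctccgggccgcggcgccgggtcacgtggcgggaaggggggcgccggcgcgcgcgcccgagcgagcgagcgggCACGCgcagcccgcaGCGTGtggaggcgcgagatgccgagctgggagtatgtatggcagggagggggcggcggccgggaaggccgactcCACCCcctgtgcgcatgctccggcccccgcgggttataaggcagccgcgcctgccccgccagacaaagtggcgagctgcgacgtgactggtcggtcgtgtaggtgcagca
Cdhr5 (chr7:141276737-141277036, minus strand): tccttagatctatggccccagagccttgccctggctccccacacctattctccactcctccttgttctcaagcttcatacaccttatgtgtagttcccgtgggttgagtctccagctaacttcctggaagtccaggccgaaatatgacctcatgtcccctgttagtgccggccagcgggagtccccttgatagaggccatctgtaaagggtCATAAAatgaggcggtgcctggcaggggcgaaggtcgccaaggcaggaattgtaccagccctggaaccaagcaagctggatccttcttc
Mep1a (chr17:43502724-43503023, minus strand): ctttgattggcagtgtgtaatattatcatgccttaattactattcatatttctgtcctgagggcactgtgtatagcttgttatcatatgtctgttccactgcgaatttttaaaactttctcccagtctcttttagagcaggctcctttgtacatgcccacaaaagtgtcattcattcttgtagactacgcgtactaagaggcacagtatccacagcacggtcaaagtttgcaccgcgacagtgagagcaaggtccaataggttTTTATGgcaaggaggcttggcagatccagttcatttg
Muc13 (chr16:33794239-33794538, plus strand): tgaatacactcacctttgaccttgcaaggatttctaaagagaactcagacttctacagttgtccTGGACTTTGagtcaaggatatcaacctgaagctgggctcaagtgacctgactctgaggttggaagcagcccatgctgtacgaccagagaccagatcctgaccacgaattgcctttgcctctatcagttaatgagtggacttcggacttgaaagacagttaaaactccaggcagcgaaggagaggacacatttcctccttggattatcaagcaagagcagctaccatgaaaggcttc

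The first comparison asked how the members differ between genotypes without added FICZ. Under DMSO, 11 of the 25 tested members fell in the libraries labelled AHR KO, 1 rose and 13 did not pass the test (limma, Benjamini-Hochberg adjusted p under 0.05 over all 12741 genes tested). The share called lower was 44.0% of the tested members, against 4.83% of all genes tested, and the share called higher was 4.0% against 4.21%. The median log2 fold change of the tested members was -0.73, against -0.01 for all genes tested. The DMSO count depended on the fit, as given below, and 20 members were lower with an unadjusted limma p under 0.05. Under FICZ, 19 of the 25 fell (76.0%, against 10.5% of all genes tested), 1 rose (4.0% against 9.48%) and 5 did not pass, with a median of -1.01, against -0.004 for all genes tested. The 2 genotype comparisons used separate libraries but were fitted with 1 shared estimate of the spread. Since the members were chosen with earlier results of these data known, these shares and the one without overlap below are descriptions, not independent evidence.

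Without regard to treatment, all 4 libraries labelled AHR KO lay below all 5 labelled WT for 20 of the 25 tested members (80.0%, against 7.82% of all genes tested). They lay above them for Slc16a1 alone (4.0%), and the share of all genes tested that did so is not reported here. The exceptions that overlapped were Vil1, Car2, Cdhr2 and Ceacam1. Of the 25, 24 had a value of 10 or more in every library, so they did not pass the minimum through WT alone. Slc26a3 was the exception, and without it 11 of 24 were called lower under DMSO and 18 of 24 under FICZ, and 19 of 24 did not overlap. In bulk RNA, fewer absorptive cells and less RNA per cell cannot be told apart.

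**Figure D1:**
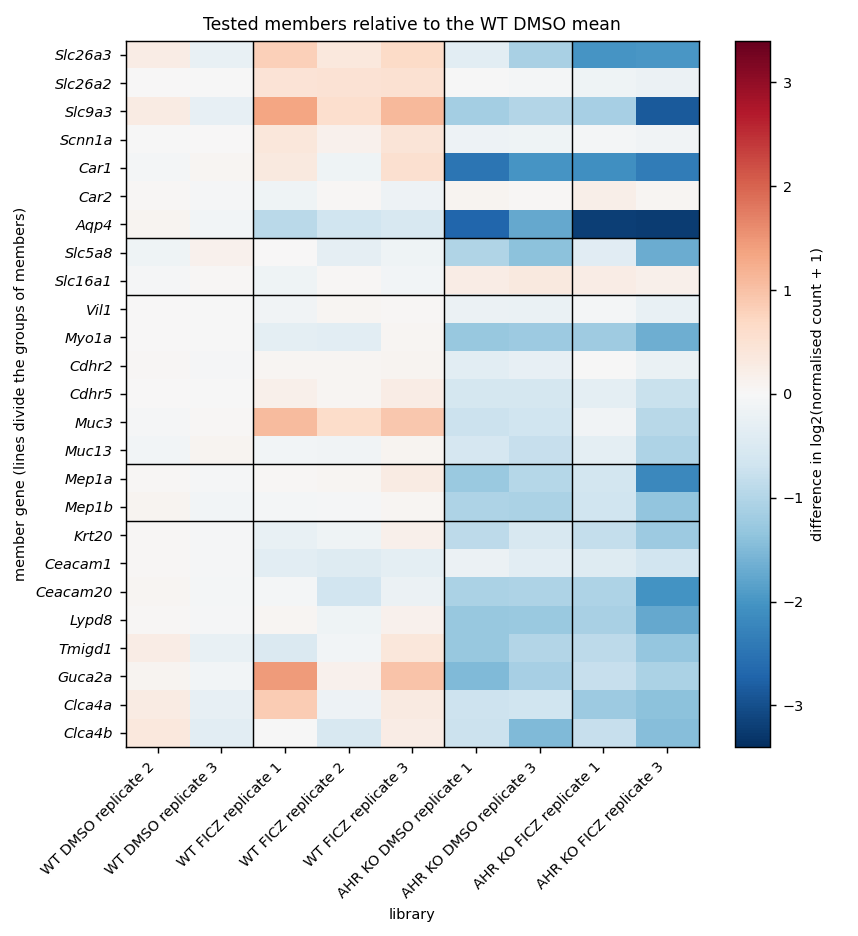
Difference of each of the 25 tested members in each of the 9 libraries from its WT DMSO mean, in log2(normalised count + 1), with horizontal lines between the groups of members and vertical lines between the sample groups. Blue cells fill the 4 AHR KO columns for all but a few members, with Car2 and Slc16a1 near or above 0, and AHR KO FICZ replicate 3 is darker than replicate 1 for most rows.

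Among the 10 members for ion, water and acid-base transport, 7 were tested. Car1, a cytosolic carbonic anhydrase of colonocytes (chr3:14766216-14808368), was at 1673 and 1815 normalised counts in WT DMSO, 2190, 1561 and 2530 in WT FICZ, 309 and 432 in AHR KO DMSO, and 407 and 335 in AHR KO FICZ. Every AHR KO library was far under every WT library. The log2 fold change of AHR KO over WT was -2.25 ± 0.21 (SE) under DMSO and -2.47 ± 0.19 under FICZ (limma adjusted p = 0.000231 and 2.14e-05). Its neighbour on chromosome 3, Car2 (chr3:14886273-14900770), did not fall with it. It ranged from 20922 to 24231 in WT and from 24164 to 26903 in AHR KO, and its differences of 0.07 ± 0.08 and 0.22 ± 0.07 did not pass (limma adjusted p = 0.631 and 0.0527).

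Aqp4, a basolateral water channel (chr18:15389496-15410982), showed the other large difference under both treatments. It was at 1483 and 1294 in WT DMSO, 740, 872 and 955 in WT FICZ, 214 and 412 in AHR KO DMSO, and 151 and 147 in AHR KO FICZ, and the groups did not overlap. It was lower in AHR KO, with log2 fold changes of -2.22 ± 0.24 under DMSO and -2.51 ± 0.22 under FICZ (limma adjusted p = 0.000529 and 4.15e-05). It was the only tested member called lower with FICZ in both genotypes, at -0.70 ± 0.22 in WT and -0.99 ± 0.24 in AHR KO (limma adjusted p = 0.0358 and 0.0195). Both FICZ calls were lost under several alternatives, among them removal of GC content and length, and without AHR KO DMSO replicate 3 the value in AHR KO was -0.52.

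Slc9a3 (chr13:74121457-74169442), the apical sodium-proton exchanger NHE3, was at 142 and 95.1 in WT DMSO, 297, 175 and 252 in WT FICZ, 52.1 and 57.5 in AHR KO DMSO, and 52.2 and 15.1 in AHR KO FICZ. Its difference between genotypes was -3.02 ± 0.43 under FICZ (limma adjusted p = 0.000818), or -3.88 without AHR KO FICZ replicate 1 and -2.16 without replicate 3, and did not pass under DMSO (-1.07 ± 0.47, limma adjusted p = 0.196), where it was called in 3 of 20 alternatives. Slc26a3 (chr12:31390871-31473917) was at 24.1 and 16.4 in WT DMSO, 35.6, 25.6 and 32.1 in WT FICZ, 15.2 and 8.78 in AHR KO DMSO, and 4.17 and 4.26 in AHR KO FICZ. Since Slc26a3 passed the minimum only through groups where it was higher, nothing is read from its own test. That test enters only the counts and medians over all 25 tested members. At a few reads in AHR KO FICZ the values of Slc26a3 carry large counting error. For both exchangers the FICZ libraries lay above the DMSO libraries in WT. In AHR KO they lay below them for Slc26a3 and overlapped for Slc9a3. The FICZ change of Slc9a3 did not pass in WT (1.01 ± 0.43, limma adjusted p = 0.098) or in AHR KO (-0.93 ± 0.47, limma adjusted p = 0.189). In WT, Slc9a3 was called in 3 of 21 alternatives, namely with only the groups compared and without either AHR KO FICZ library. In AHR KO, single libraries decided the Slc9a3 value, which was -1.79 without AHR KO FICZ replicate 1, where it was called (limma adjusted p = 0.016), and -0.069 without replicate 3. The test of the difference between the FICZ changes did not pass as fitted to all libraries, at 1.94 ± 0.63 for Slc9a3 (limma adjusted p = 0.413). It was 2.81 and called without AHR KO FICZ replicate 1 (limma adjusted p = 0.0282), and 1.08 without replicate 3.

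Slc26a2 (chr18:61192919-61211612), a sulfate transporter of the same family, was the member whose FICZ response differed between genotypes by test. It was at 6417 and 6278 in WT DMSO and rose to 8778, 8986 and 9040 in WT FICZ. In AHR KO it was at 6278 and 6094 in DMSO and at 5773 and 5574 in FICZ. The rise in WT was 0.49 ± 0.04 on the log2 scale (limma adjusted p = 0.000143), the value in AHR KO was -0.12 ± 0.05 (limma adjusted p = 0.0998), and the difference between them was 0.62 ± 0.07 (limma adjusted p = 0.00231). Slc26a2 did not pass between genotypes under DMSO (-0.04 ± 0.05, limma adjusted p = 0.695) but fell by 0.66 under FICZ (SE 0.04, limma adjusted p = 8.77e-06). It was the sole one of 25 tested members called in the interaction (4.0%, against 0.377% of all genes tested called in this direction). None was called with a larger change in AHR KO, and none had an unadjusted p under 0.05 in that direction.

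Scnn1a, the alpha subunit of the epithelial sodium channel (chr6:125320659-125344943), was at 2231 and 2309 in WT DMSO, 2955, 2505 and 3060 in WT FICZ, 2027 and 2043 in AHR KO DMSO, and 2174 and 2073 in AHR KO FICZ. It rose by 0.32 ± 0.08 with FICZ in WT (limma adjusted p = 0.0133, lost when GC content and length were removed, where the change was 0.11). It did not pass in AHR KO (0.06 ± 0.09, limma adjusted p = 0.664), and the difference between the genotypes' FICZ changes did not pass (0.26 ± 0.12, limma adjusted p = 0.677). Between genotypes it was lower in AHR KO under FICZ (-0.41 ± 0.08, limma adjusted p = 0.0046) but did not pass under DMSO (-0.16 ± 0.09, limma adjusted p = 0.304).

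**Figure D2:**
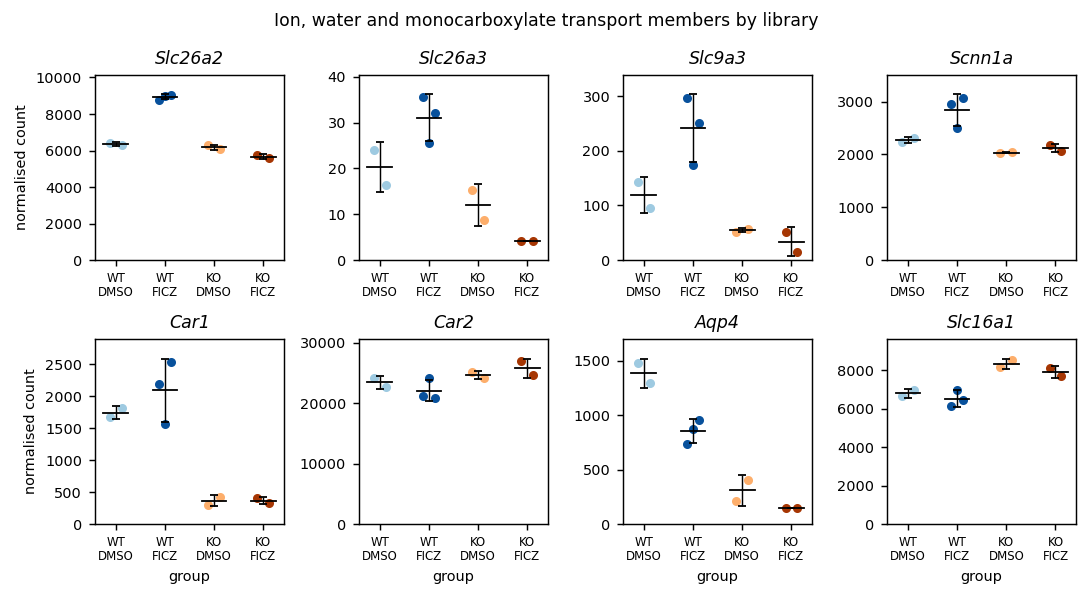
Normalised counts of 8 transport members in each library (points) with the group mean (line) and SD (bars), on linear axes that start at 0, for WT and AHR KO (KO) organoids under DMSO or FICZ. Car1 and Aqp4 are low in all AHR KO libraries, Slc26a2 is high in WT FICZ alone, and Slc16a1 is higher in AHR KO than in WT.

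Of the 4 organic anion and bile acid transporters, 2 were tested. Slc16a1, the proton-coupled monocarboxylate transporter MCT1 that carries butyrate (chr3:104638668-104658462), was at 6640 and 6982 in WT DMSO, 6138, 6998 and 6434 in WT FICZ, 8168 and 8532 in AHR KO DMSO, and 8132 and 7707 in AHR KO FICZ. It was higher in AHR KO by 0.29 ± 0.07 under DMSO and 0.28 ± 0.06 under FICZ (limma adjusted p = 0.0238 and 0.00987). Slc5a8, the sodium-coupled monocarboxylate transporter SMCT1, ranged from 156 to 215 in WT and from 59.3 to 148 in AHR KO, and did not pass in either comparison (-1.20 ± 0.34 under DMSO and -0.89 ± 0.31 under FICZ, limma adjusted p = 0.0574 and 0.0724). Its FICZ value rested on single libraries: it was -1.54 without AHR KO FICZ replicate 1, where it was called (limma adjusted p = 0.00162), and -0.24 without replicate 3. Under DMSO it was called in 5 of 20 alternatives. Neither transporter passed the test for FICZ in WT or in AHR KO.

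The 6 members of microvillus structure and surface mucins were all tested. Myo1a, the myosin that tethers the actin core to the microvillus membrane (chr10:127705170-127720940), was at 1598 and 1579 in WT DMSO, 1258, 1235 and 1674 in WT FICZ, 650 and 677 in AHR KO DMSO, and 683 and 506 in AHR KO FICZ. It was lower in AHR KO, at -1.26 ± 0.16 and -1.22 ± 0.14 on the log2 scale (limma adjusted p = 0.00111 under DMSO and 0.000241 under FICZ). Cdhr5, a protocadherin of the links between microvilli (chr7:141269083-141276786), was at 5797 and 5610 in WT DMSO against 3743 and 3765 in AHR KO DMSO, and ranged from 5966 to 6755 in WT FICZ against 3390 and 4501 in AHR KO FICZ. It fell by 0.60 under DMSO (limma adjusted p = 0.00777) and by 0.71 under FICZ (limma adjusted p = 0.000827). Its partner in these links, Cdhr2, differed by less, at -0.31 ± 0.07 and -0.20 ± 0.06 (limma adjusted p = 0.0192 and 0.0423), and its values overlapped between genotypes across treatments (7278 to 8003 in WT, 5871 to 7346 in AHR KO). The FICZ call of Cdhr2 was lost under 13 of 20 alternatives, and its value was -0.31 without AHR KO FICZ replicate 1 and -0.10 without replicate 3. Vil1 did not pass, at -0.20 ± 0.07 and -0.14 ± 0.07 (limma adjusted p = 0.126 and 0.166), and its FICZ value ranged from -0.24 to -0.053 over the alternatives.

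The mucin Muc3 (chr5:137134922-137149322) was at 1468 and 1578 in WT DMSO, 3195, 2327 and 2892 in WT FICZ, 918 and 953 in AHR KO DMSO, and 1401 and 788 in AHR KO FICZ. Its longest annotated transcript has 1853 bases, and its RefSeq promoter (chr5:137165997-137166296) lies outside the annotated gene. These values may thus not cover the whole gene. In WT it rose with FICZ by 0.87 ± 0.20 (limma adjusted p = 0.00941), the largest change among the members called in that comparison. In AHR KO the value was 0.17 ± 0.22 (limma adjusted p = 0.636), and the difference between genotypes in the FICZ change did not pass (0.70 ± 0.30, limma adjusted p = 0.634), with values from 0.29 to 1.11 and a lowest limma adjusted p of 0.0519 over the alternatives. Between genotypes Muc3 was lower in AHR KO under FICZ, at -1.40 ± 0.20 (limma adjusted p = 0.000864) and did not pass under DMSO (-0.70 ± 0.22, limma adjusted p = 0.0789), where it was called in 4 of 20 alternatives. Muc13 ranged from 7947 to 9168 in WT and from 4158 to 6810 in AHR KO, with differences of -0.68 ± 0.18 under DMSO and -0.65 ± 0.17 under FICZ (limma adjusted p = 0.045 and 0.0205), and its DMSO call was lost under 10 of 20 alternatives. Under FICZ the value of Muc13 was -1.01 without AHR KO FICZ replicate 1 and -0.30 without replicate 3.

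Of the 5 brush border enzymes, only the meprin subunits Mep1a and Mep1b, which form a secreted and membrane metalloprotease, were tested. Mep1b was at 469 and 414 in WT DMSO, 419, 427 and 460 in WT FICZ, 213 and 208 in AHR KO DMSO, and 274 and 172 in AHR KO FICZ, so that the genotypes did not overlap. It was lower in AHR KO, at -1.06 ± 0.18 under DMSO and -0.998 ± 0.17 under FICZ (limma adjusted p = 0.00548 and 0.00209). Mep1a was at 122 to 152 in WT, 51.3 and 63.3 in AHR KO DMSO, and 81.2 and 26.9 in AHR KO FICZ. Its difference passed under FICZ (-1.52 ± 0.36, limma adjusted p = 0.0136) and not under DMSO (-1.13 ± 0.39, limma adjusted p = 0.108). The DMSO difference was called in 3 of 19 alternatives. The FICZ value was -2.30 without AHR KO FICZ replicate 1 and -0.74 without replicate 3, where it was not called (limma adjusted p = 0.0517). That of Mep1b was -0.67 without replicate 3.

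Among the 10 surface and secreted products, 8 were tested. Lypd8 (chr11:58379043-58390728) was at 39121 and 37599 in WT DMSO, 39951, 34465 and 42513 in WT FICZ, 15573 and 15898 in AHR KO DMSO, and 17915 and 11520 in AHR KO FICZ. Its mean ± SD was 38360 ± 1076 (n = 2) in WT DMSO and 15736 ± 230 (n = 2) in AHR KO DMSO. The log2 fold changes of AHR KO over WT were -1.29 ± 0.17 and -1.43 ± 0.15 (limma adjusted p = 0.00135 under DMSO and 0.000118 under FICZ). Lypd8 did not pass for FICZ in WT (0.02 ± 0.15, limma adjusted p = 0.944) or AHR KO (-0.13 ± 0.17, limma adjusted p = 0.621).

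Krt20, the keratin of surface epithelium (chr11:99428403-99438150), was at 1050 and 986 in WT DMSO, 853 to 1149 in WT FICZ, 553 and 692 in AHR KO DMSO, and 583 and 429 in AHR KO FICZ, with differences of -0.72 ± 0.17 and -0.95 ± 0.16 (limma adjusted p = 0.0281 and 0.00207). Ceacam20, a brush border adhesion molecule, was at 614 and 568 in WT DMSO, 375 to 561 in WT FICZ, 281 and 285 in AHR KO DMSO, and 287 and 143 in AHR KO FICZ (-1.06 ± 0.27 and -1.23 ± 0.25, limma adjusted p = 0.0393 and 0.00677). Without AHR KO FICZ replicate 3 its FICZ value was -0.73. Tmigd1, an adhesion molecule of the microvillus membrane, was at 59.5 to 109 in WT and 32.9 to 45.3 in AHR KO. Its differences of -1.14 ± 0.31 and -1.03 ± 0.29 lay close to the threshold under DMSO (limma adjusted p = 0.0499 and 0.0299), and the DMSO call was lost under 12 of 19 alternatives.

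Guca2a, which encodes the guanylate cyclase ligand guanylin, was at 66.1 and 57.7 in WT DMSO, 169, 67.9 and 123 in WT FICZ, 21.3 and 27.7 in AHR KO DMSO, and 35.6 and 28.6 in AHR KO FICZ. The genotypes did not overlap. The difference was -1.78 ± 0.34 under FICZ (limma adjusted p = 0.0045) and -1.31 ± 0.37 under DMSO (limma adjusted p = 0.0542), where it was called in 5 of 19 alternatives. The FICZ change in WT, 0.85 ± 0.34, did not pass (limma adjusted p = 0.0814) and rested on single libraries: it was 1.21 and called without WT FICZ replicate 2, and 0.56 without WT FICZ replicate 1. Clca4a, of a family of secreted regulators of chloride conductance, was at 121 to 266 in WT and 54.9 to 89.8 in AHR KO. It was called lower under FICZ (-1.65 ± 0.27, limma adjusted p = 0.00192) and not under DMSO (-0.70 ± 0.30, limma adjusted p = 0.18), where its value ranged from -0.97 to -0.43 over the alternatives. Its neighbour Clca4b, at 32.9 to 63.3 in WT and 16.6 to 28.9 in AHR KO, was called in neither (-1.12 and -1.01, limma adjusted p = 0.125 and 0.0862). Over the alternatives these ranged from -1.50 to -0.74 under DMSO and from -1.34 to -0.67 under FICZ. The FICZ difference of Clca4b was called without WT FICZ replicate 2 (limma adjusted p = 0.0468). Clca4a and Clca4b are close paralogues, as are Guca2a and Guca2b, and how the deposited values split reads between such copies is not known.

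Ceacam1 (chr7:25461707-25477603) was at 171498 and 164552 in WT DMSO, 130903, 123365 and 133905 in WT FICZ, 144985 and 130741 in AHR KO DMSO, and 124553 and 106083 in AHR KO FICZ. It fell with FICZ in WT by 0.38 (SE 0.09, limma adjusted p = 0.00866). In AHR KO the value was -0.26 ± 0.09 (limma adjusted p = 0.0779), and the interaction did not pass (-0.12 ± 0.13, limma adjusted p = 0.924). The AHR KO value was -0.38 and called without AHR KO FICZ replicate 1 (limma adjusted p = 0.0381), was -0.14 without replicate 3, and was also called with robust eBayes. Neither difference between genotypes passed (-0.29 ± 0.09 and -0.17 ± 0.09, limma adjusted p = 0.0897 and 0.196). Over the alternatives these ranged from -0.36 to 0 under DMSO and from -0.29 to -0.0083 under FICZ. The DMSO difference was called with only the groups compared (limma adjusted p = 0.0265). Its paralogue Ceacam2 reached 75.04 at most.

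**Figure D3:**
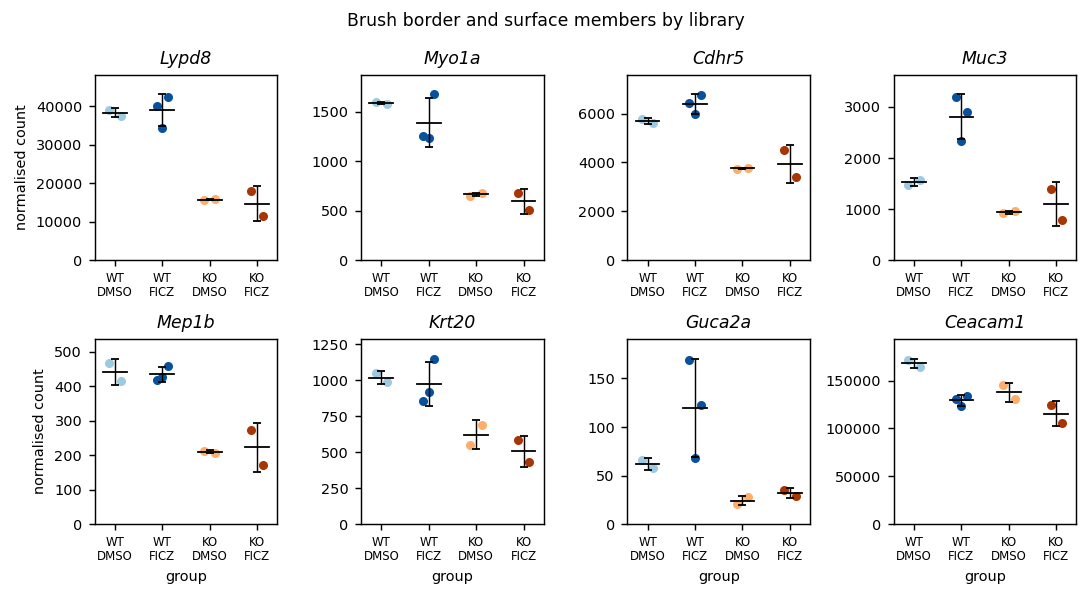
Normalised counts of 8 brush border and surface members in each library (points) with the group mean (line) and SD (bars), on linear axes that start at 0. The AHR KO libraries lie under the WT libraries for every gene drawn but Ceacam1, Muc3 is raised in WT FICZ, and Ceacam1 overlaps between the genotypes.

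**Figure D4:**
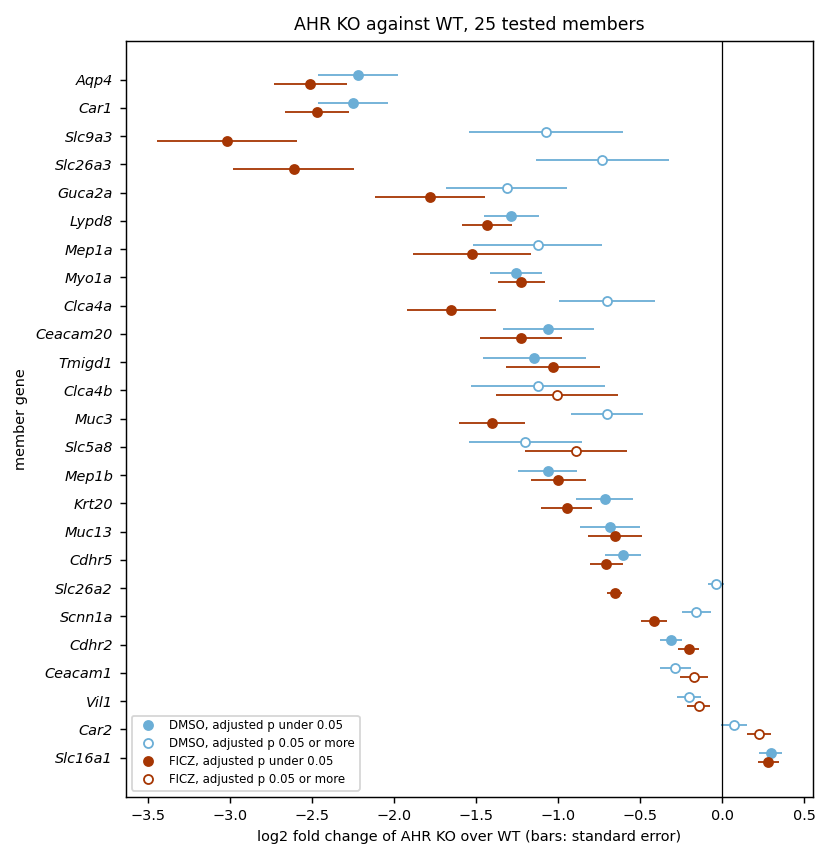
Log2 fold change of AHR KO over WT for the 25 tested members under DMSO (blue) and FICZ (brown), with bars for the standard error and filled points for an adjusted p under 0.05. 23 of the 25 members lie left of 0 under each treatment, from -3.02 for Slc9a3 under FICZ, while Car2 and Slc16a1 lie to the right. Slc26a3 is drawn as fitted and its test is not read.

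The second question was whether FICZ itself moved the members within 4 h. In WT, 3 of the 25 tested members rose (Slc26a2, Scnn1a and Muc3) and 2 fell (Aqp4 and Ceacam1), which is 12% and 8.0% of them, against 15.1% and 15.7% of all genes tested. The share of members called was thus no higher than that of all genes, and their median change was -0.008, against -0.01 for all genes tested. In AHR KO, Aqp4 was the sole member called lower (4.0%, against 9.48% of all genes tested). None was called higher by limma (against 10.2%), while 1 had an unadjusted p under 0.05, Cdhr2 at 0.19 ± 0.07 (limma adjusted p = 0.0815). These counts rested on single libraries. No member was called lower without AHR KO DMSO replicate 3 or AHR KO FICZ replicate 3, and 5 were without AHR KO FICZ replicate 1 (Slc9a3, Mep1a, Ceacam20, Lypd8 and Ceacam1). Without AHR KO FICZ replicate 3, 2 were called higher, Muc3 and Cdhr2, the latter at 0.29 (limma adjusted p = 0.0273), while Cdhr2 was at 0.085 without replicate 1. Car1, Lypd8 and Myo1a, which were called between genotypes under each treatment, did not pass for FICZ in either genotype with all libraries, with changes between -0.21 and 0.24. Without WT DMSO replicate 2, Slc26a2 was the sole member still called for FICZ in WT, and without WT DMSO replicate 3 Scnn1a and Aqp4 were not called.

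**Figure D5:**
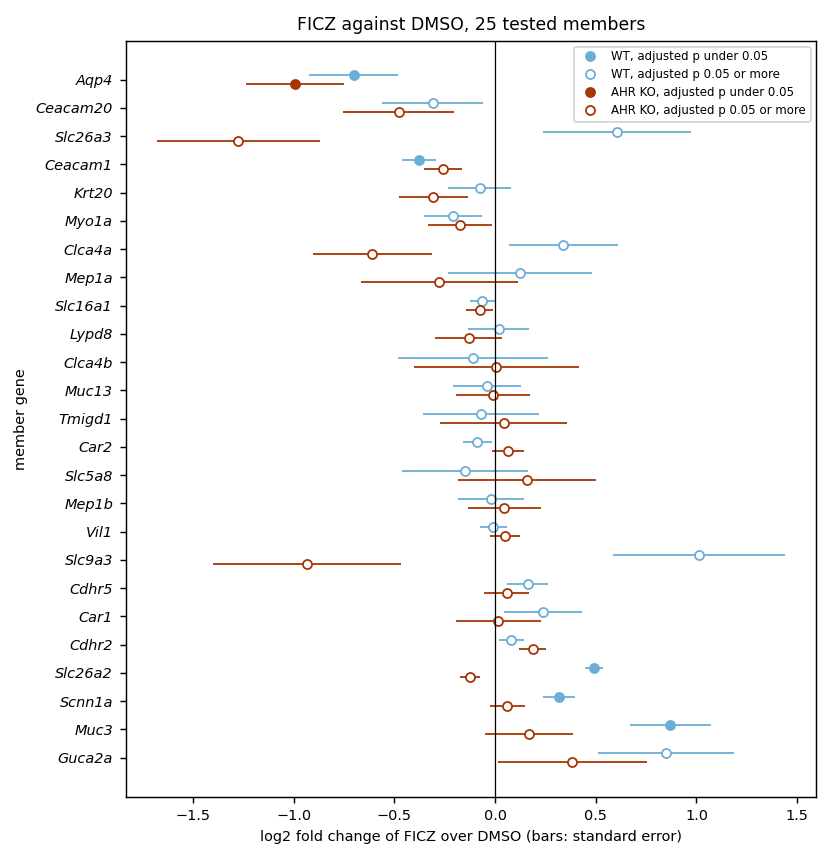
Log2 fold change of FICZ over DMSO for the 25 tested members in WT (blue) and AHR KO (brown), with bars for the standard error and filled points for an adjusted p under 0.05. Most members lie near 0, Slc26a2, Scnn1a and Muc3 are filled to the right in WT, and the points of Slc9a3 lie on opposite sides of 0, unfilled. Slc26a3 is drawn as fitted and its test is not read.

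Replicates of AHR KO FICZ were not alike for these genes. Replicate 3 was lower than replicate 1 for 24 of the 25 tested members, where replicate 1 was the higher for 48.6% of all genes tested. The median of replicate 1 minus replicate 3 was 0.41 on the log2 scale, against -0.005 over all genes tested. In WT FICZ, replicate 2 was lower than replicate 3 for 22 of the 25, where replicate 2 was the higher for 49.1% of all genes tested. The median of replicate 2 minus replicate 3 was -0.29, against -0.004 over all genes tested. The pairs of DMSO libraries lay closer, with a median of replicate 2 minus replicate 3 of 0.07 in WT and of replicate 1 minus replicate 3 of -0.03 in AHR KO. The genotype difference was present with either AHR KO FICZ library: replicate 1, the higher, was still below WT FICZ replicate 2, the lowest of its group, for 22 of the 25 tested members, where WT FICZ replicate 2 was the higher for 51.9% of all genes tested. Without AHR KO FICZ replicate 3, Muc13, Mep1a, Tmigd1 and Cdhr2 were no longer called under FICZ. Without single DMSO libraries, the 11 members called lower under DMSO became 4 at the fewest, without AHR KO DMSO replicate 3. Car1, Aqp4, Myo1a and Lypd8 kept their DMSO calls under all alternatives run, whereas Cdhr2, Muc13, Krt20, Ceacam20, Tmigd1 and Slc16a1 each lost theirs without any single one of the 4 DMSO libraries, Cdhr5 without 3 of them and Mep1b without AHR KO DMSO replicate 3. Slc16a1 lost its FICZ call without AHR KO FICZ replicate 1.

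Genes that regulate absorptive differentiation were examined beside the members. All 14 on the list were tested, of which 8 fell in AHR KO under DMSO and 9 under FICZ, where 4.83% and 10.5% of all genes tested were called lower. The largest falls on the list were those of Vdr, the vitamin D receptor (-1.60 ± 0.16 and -1.74 ± 0.14, limma adjusted p = 0.000273 and 2.76e-05), and the homeobox gene Cdx1 (-1.15 ± 0.10 and -1.43 ± 0.10, limma adjusted p = 0.000191 and 8.02e-06). Without WT DMSO replicate 2 or either AHR KO DMSO library, 2 of the 14 were called lower under DMSO, and without WT DMSO replicate 3, 6 were. With FICZ, 6 of the 14 rose and 1 fell in WT, where 15.1% of all genes tested were called higher and 15.7% lower. Without WT DMSO replicate 3, 2 rose, and none was called lower by limma without either WT DMSO library or WT FICZ replicate 1. The largest changes were those of Cdx2 (0.80 ± 0.09, limma adjusted p = 0.000271), the retinoid receptor gene Rxra (0.49 ± 0.08, limma adjusted p = 0.00172) and Hnf4g (-0.48 ± 0.13, limma adjusted p = 0.0203). With GC content and length removed, 2 rose and none fell. None was called in AHR KO by limma, where 3 had an unadjusted p under 0.05, but over the 21 alternatives Elf3 was called in 7, Hnf4g in 2 and Rxra in 1. Among these, 1 was called higher without WT FICZ replicate 2 or AHR KO FICZ replicate 3 and 1 lower without AHR KO FICZ replicate 1. The difference between genotypes in the FICZ change passed for none of the 14 by limma, and 2 had an unadjusted p under 0.05. It passed for 1 without WT FICZ replicate 2 and for 1 with GC content and length removed. Cdx1, Cdx2 and Rxra were among the genes the study picked from these libraries, so their directions are not independent evidence.

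Further transport, brush border and oxidation genes were examined beside the members. Of 15 tested further ion and water transport genes, 3 fell and 2 rose in AHR KO under DMSO, and 3 fell and 6 rose under FICZ. Over all genes tested, 4.83% were called lower and 4.21% higher under DMSO, and 10.5% and 9.48% under FICZ, which is the background also for the counts that follow. Without any single one of the 4 DMSO libraries, the 3 that fell under DMSO became 0 or 1, and the 2 that rose became 1 without WT DMSO replicate 3 or either AHR KO DMSO library. Under FICZ, 5 fell without AHR KO FICZ replicate 1. The basolateral potassium channel gene Kcnn4 rose most (0.83 ± 0.13 and 1.23 ± 0.12, limma adjusted p = 0.00293 and 5.94e-05). Of 12 tested further brush border genes, 2 fell under DMSO, and 3 fell and 1 rose under FICZ, with Ush1c, the scaffold of the microvillus links, falling most among those called (-0.52 ± 0.09 and -0.59 ± 0.08, limma adjusted p = 0.00468 and 0.000542). The 2 that fell under DMSO became 1 without any single DMSO library, and the 1 that rose under FICZ was not called without WT FICZ replicate 1 or AHR KO FICZ replicate 1. Of 9 tested genes of butyrate and fatty acid oxidation, 2 fell under DMSO and 3 under FICZ, among them Cpt1a, the carnitine transferase that admits fatty acids to mitochondria (-0.37 ± 0.07 and -0.40 ± 0.06, limma adjusted p = 0.00796 and 0.00126). The 2 that fell under DMSO became 1 without WT DMSO replicate 2, 0 without each of the other DMSO libraries, and 4 without WT FICZ replicate 2.

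Markers of other cell types moved beside the members to different degrees. Of 5 tested goblet cell markers, 3 fell in AHR KO under each treatment, with the summed list of 9 at 3694 to 5920 in WT and 1311 to 1810 in AHR KO. The DMSO count became 1 without WT DMSO replicate 3 or either AHR KO DMSO library, and the FICZ count became 5 with the replicate number as a block. Of 3 tested enteroendocrine and tuft cell markers, the tuft cell gene Dclk1 was called lower under DMSO and none was called under FICZ by limma (0 had an unadjusted p under 0.05). Dclk1 was at 31.7 and 51.8 in WT DMSO, 11.6 to 44.1 in WT FICZ, 5.27 and 3.28 in AHR KO DMSO and 11.7 and 9.86 in AHR KO FICZ, so it passed the minimum through WT, and its DMSO call was lost without WT DMSO replicate 3 or AHR KO DMSO replicate 3. Of 12 stem and cycling cell markers, none was called between genotypes under DMSO by limma (3 had an unadjusted p under 0.05). Their sum was 55059 to 61733 in WT and 52779 to 58477 in AHR KO. The cycling genes Mki67 and Top2a were the highest in it, with means of 16240 and 14390 over the 9 libraries. Without WT FICZ replicate 1, 1 of the 12 was called higher under DMSO, and without WT FICZ replicate 2, 1 was called lower. With only the groups compared, 3 were called lower and 1 higher. Under FICZ, Lgr5 and Sox9 were higher in AHR KO (1.46 ± 0.11 and 1.13 ± 0.09, limma adjusted p = 1.5e-05 and 2.76e-05). Without regard to treatment, Sox9 and Smoc2 were each higher in all 4 AHR KO libraries than in all 5 WT libraries. The share of all genes tested that did so is not reported here. Sox9 was also among the genes the study picked from these libraries, so its direction is not independent evidence. Of the small intestinal enterocyte list, 4 of 12 genes were tested, with 2 positive and 2 negative values in each genotype comparison. Among the negative ones, Rbp2 was at 12.9 to 23.3 in WT and 5.3 to 9.5 in AHR KO. It thus passed the minimum through WT, and its sign is not read. The glucose transporter gene Slc5a1 was the 1 called under DMSO (-1.69 ± 0.20, limma adjusted p = 0.000754) and was lower also under FICZ (-1.95 ± 0.18, limma adjusted p = 5.64e-05). The bile acid transporter gene Slc10a2 was called higher in AHR KO than in WT among the FICZ libraries. It was at 31.2 and 37.7 in WT DMSO, 6.18 to 7.01 in WT FICZ, 36.9 and 41.0 in AHR KO DMSO, and 31.1 and 18.3 in AHR KO FICZ. It was thus under the minimum of 10 in WT FICZ and passed through the other groups, and its FICZ libraries lay below its DMSO libraries in both genotypes. Immune and endothelial markers summed to between 482 and 728, nearly all from Cd68. The part of any of these in the members' differences was not tested.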

How the data were processed

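RNA from 9 mouse colon organoid cultures was sequenced (stranded libraries depleted of ribosomal RNA, per the methods of the study). The authors deposited a signal, a table of normalised read counts per Ensembl gene that need not be whole. The deposited table is labelled as RSEM normalised data. The submitters' processing notes name STAR 2.5.2a, RSEM 1.2.31, DESeq2 1.16.1 and GRCm38. The study's methods also name summarizeOverlaps, and beyond the label the sources used here do not state which program made the table. Whole reads could not be recovered, so no count model was used. Symbols from GENCODE M21 matched 48349 identifiers (99.1%).

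From these values, limma 3.58.1 (R 4.3.3; linear model on the 4 groups, moderated with a trend) was applied to log2(value + 1) of the 12741 genes whose mean reached 10. Adjusted p-values are Benjamini-Hochberg over all genes tested, two-sided, with a threshold of 0.05, and fold changes on this scale understate the change of low genes. The fit was tested on simulated data, and that outcome is not reported here. The members and lists were chosen with earlier results of these data known. All 37 members are reported, and at most 3 called genes of another list in each comparison. Alternatives were other pseudocounts, minimums and scalings, robust eBayes, only the groups compared, blocks, removal of GC content and length, and leaving out each library. Some genes of the other lists are not reported here.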

Additional observations from a re-analysis of the deposited data

Results flagged for a closer look

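Several genes met a test of the difference between the FICZ change in WT and that in AHR KO (limma interaction, Benjamini-Hochberg over all genes tested). Among the members this was Slc26a2, at 0.62 on the log2 scale (adjusted p = 0.00231), and it was called under all of its alternatives. Among the genes examined beside the members these were Lgr5 at -1.24 (adjusted p = 0.00784, called under 19 of 20 alternatives) and Sox9 at -1.01 (adjusted p = 0.0113, 16 of 20). Sox9 was picked by the study from these libraries, so it is not independent evidence. Groups of 2 and 3 libraries are too small for a test of single deviating libraries.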

How the results depend on the processing

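Of the 39 calls of members, 21 held under every alternative run and the others were lost under at least 1. Without Slc26a3, which passed the minimum only through groups where it was higher, these were 38 and 20. The alternatives changed the sign of 4 values that passed in some fit, all of them FICZ changes in AHR KO and none called as reported. Without AHR KO FICZ replicate 1 and without replicate 3, in that order, Muc3 was at -0.25 and 0.58, Mep1a at -1.06 and 0.50, Ceacam20 at -0.98 and 0.021, and Lypd8 at -0.45 and 0.19. Removal of GC content and length lowered all FICZ calls to 2313 in WT and 683 in AHR KO, where no member was then called lower. Members called lower with FICZ in WT became 1 with no minimum, with robust eBayes, with GC content and length removed and with either block. Those called lower in AHR KO became 2 with a pseudocount of 0.1 and with quantile normalization. They were also 2 with genotype and replicate number together as a random effect, and 3 with robust eBayes. One of those added in each of these fits was Slc26a3, so these counts are not read as added calls. Besides, 1 was called higher with quantile normalization. Fitting only the groups compared gave 18 members lower between genotypes under DMSO. Under FICZ, 2 were called higher, Slc16a1 and Car2, with a mean of 100 or more, upper quartile scaling, quantile normalization, robust eBayes, the number block, or GC content and length removed. The cause of these shifts was not tested.

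Without each library in turn, all genes called ranged from 1993 to 4135 for FICZ in WT, 419 to 2957 for FICZ in AHR KO, 23 to 78 for the interaction, and 389 to 1473 and 1324 to 3089 between genotypes under DMSO and FICZ. Members called ranged from 1 to 4 higher and 0 to 2 lower for FICZ in WT, from 0 to 2 higher and 0 to 5 lower for FICZ in AHR KO, and from 1 to 2 higher for the interaction. Between genotypes they ranged from 0 to 1 higher and 4 to 14 lower under DMSO, and from 0 to 2 higher and 15 to 20 lower under FICZ.

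Same-numbered libraries deviated together only weakly (r = 0.035 to 0.050), so the numbers were not taken to pair them. With the number as a replicate block, 3412 genes were called for FICZ in WT and 2460 between genotypes under FICZ, with 3 members higher and 1 lower in the former and 2 higher and 18 lower in the latter. Between genotypes under DMSO, that block ended the calls of Cdhr2, Krt20 and Tmigd1 and called Slc5a8, Muc3 and Guca2a lower in AHR KO. A fixed replicate block of genotype and number together was chosen after seeing the data and gave 3138 calls for FICZ in WT. The labels do not say that libraries sharing both came from the same organoid line. The 12 members with a mean under 10 fell below the minimum for the test, and depth limits what can be said of them.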
